A study of Mus musculus with 96 samples.

Results

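The genes described here are 8 genes of central and peripheral myelin, *Mbp*, *Mobp*, *Mog*, *Mag*, *Cnp*, *Cldn11*, *Mal* and *Pmp22*. They were taken by symbol as 8 of the 41575 rows of the deposited count table. The rule is a list of symbols and uses no measured value, although the list was drawn up with earlier results of these data known. Bulk RNA was sequenced from 16 tissues of wild-type mice and of *Scx*-/- mice, which lack the transcription factor scleraxis, all aged 3 weeks. Each tissue and genotype had 3 libraries, 96 in total, prepared by MuSeq, a multiplexed RNA-seq in which samples are barcoded at cDNA synthesis and then pooled. The cortex and hippocampus libraries are the brain libraries, 12 in all, and the other 14 tissues were stomach, intestine, rectum, liver, kidney, bladder, lung, heart, vascular tissue, spleen, adipose, muscle, bone and cartilage. Whole organs were taken, so each library mixes all cell types of its tissue. Wild-type mice served as controls. Neither the sex of the animals nor the libraries that share an animal could be read from the labels, so that p-values measure the spread between libraries, which may in part be technical.

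Myelin is the stack of membrane that wraps axons. In the brain it is made by oligodendrocytes, and in peripheral nerves by Schwann cells. At 3 weeks of age mouse brain is in the period of active myelination, when oligodendrocytes transcribe structural myelin genes at high rates. *Mbp* encodes myelin basic protein, which holds the cytoplasmic faces of the membrane together in both kinds of myelin, and *Mobp* encodes a small basic protein of compact central myelin. *Mog* and *Mag* encode immunoglobulin-family proteins of the sheath surface, the first on its outermost lamella and the second facing the axon. *Cnp* encodes a phosphodiesterase of the cytoplasm-filled channels of myelin. *Cldn11*, *Mal* and *Pmp22* encode proteins with 4 membrane passes: the claudin of the tight junctions of central myelin, a raft proteolipid of myelin and of apical membranes of epithelia, and a protein of compact peripheral myelin that is also made by many other cells.

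In the GENCODE M21 annotation of GRCm38, the build named mm10 in the submitters' processing notes, *Mobp* lies on chromosome 9 (120149707 to 120181484, plus strand), *Mog* on chromosome 17 (37010743 to 37023398, minus strand), *Mag* on chromosome 7 (30899176 to 30914873, minus strand), *Cldn11* on chromosome 3 (31149920 to 31164324, plus strand) and *Mal* on chromosome 2 (127633226 to 127656695, minus strand). *Cnp* (100574904 to 100591729) and *Pmp22* (63128982 to 63159547) are both on the plus strand of chromosome 11. Exons of *Cnp* share 154 bases with *Dnajc7* on the opposite strand, and the strand setting of the counting is not given, so reads from these bases cannot be assigned to one of the genes. Exons of *Mobp* share 79 bases with the transcript *Gm38642* on the same strand. RefSeq promoter windows of GRCm38.p6, each with 250 bases before and 50 bases after a transcript start, were at hand for 7 of the 8 genes. The sequences of 3 genes that were highest in brain and of 2 genes with high levels in other organs are shown, 5′ to 3′ on the strand of the gene, so that the groups can be read against each other. Capitals mark CTGGCAC, the core letters bound by the oligodendrocyte factor MYRF.
Mobp promoter, chr9:120149492-120149791, plus strand: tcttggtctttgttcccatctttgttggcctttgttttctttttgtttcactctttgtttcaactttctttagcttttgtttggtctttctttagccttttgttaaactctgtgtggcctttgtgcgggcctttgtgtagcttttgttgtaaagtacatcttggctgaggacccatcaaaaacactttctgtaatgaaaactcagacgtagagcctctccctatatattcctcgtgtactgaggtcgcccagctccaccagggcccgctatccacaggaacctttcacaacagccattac
Mag promoter, chr7:30914814-30915113, minus strand: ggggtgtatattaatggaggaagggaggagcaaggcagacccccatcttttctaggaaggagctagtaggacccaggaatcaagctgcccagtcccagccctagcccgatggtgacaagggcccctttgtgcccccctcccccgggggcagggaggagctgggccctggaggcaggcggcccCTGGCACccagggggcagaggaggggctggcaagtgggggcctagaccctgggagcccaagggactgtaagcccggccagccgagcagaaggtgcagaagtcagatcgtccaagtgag
Cnp promoter, chr11:100574689-100574988, plus strand: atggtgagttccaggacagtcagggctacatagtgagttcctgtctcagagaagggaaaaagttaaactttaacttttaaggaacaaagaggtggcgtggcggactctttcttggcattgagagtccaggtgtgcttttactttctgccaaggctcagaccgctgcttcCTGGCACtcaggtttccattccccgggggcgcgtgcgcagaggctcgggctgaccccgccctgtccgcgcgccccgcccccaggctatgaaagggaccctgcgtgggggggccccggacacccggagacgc
Mal promoter, chr2:127656646-127656945, minus strand: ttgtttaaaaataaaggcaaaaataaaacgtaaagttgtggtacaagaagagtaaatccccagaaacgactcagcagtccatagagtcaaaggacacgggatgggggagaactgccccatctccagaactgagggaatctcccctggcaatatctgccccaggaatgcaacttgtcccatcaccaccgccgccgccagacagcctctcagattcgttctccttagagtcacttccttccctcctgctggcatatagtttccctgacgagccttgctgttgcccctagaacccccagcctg
Pmp22 promoter, chr11:63128732-63129031, plus strand: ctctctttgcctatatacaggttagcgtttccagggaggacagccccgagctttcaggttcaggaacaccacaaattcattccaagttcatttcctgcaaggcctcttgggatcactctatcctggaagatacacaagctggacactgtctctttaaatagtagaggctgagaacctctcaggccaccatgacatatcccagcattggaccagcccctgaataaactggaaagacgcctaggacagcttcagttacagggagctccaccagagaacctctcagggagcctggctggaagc

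On both strands of these windows, CTGGCAC occurred in *Mag*, at -68 from the transcript start, and in *Cnp*, at -81. The same letters lie at -9 in window 2 of *Mag*, from another start, and window 3 of *Mag* held no match. CTGGCAC occurred in none of the windows of *Mobp*, *Mog*, *Cldn11*, *Mal* or *Pmp22*. It was in 5.011% of all 32851 RefSeq promoter windows of 300 bases. The SOX core ACAAT (31.02% of all windows) and TATAAA (13.62%) were in no window of the 7 genes. The GC box GGGCGG (35.66% of all windows) was present in *Cnp*, *Cldn11* and 2 of the 4 windows of *Pmp22*. The E-box CANNTG (72.31%) was present in the 3 windows of *Mag*, in *Cnp* and in 1 window of *Pmp22*. A match is a description of letters and not a bound site.

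Library totals ranged from 11244 to 1658192 counts (median 251640), with 118567 to 1658192 counts in the brain libraries and fewer than 100000 in 16 libraries of other tissues. *Scx*, the deleted gene, had counts in 12 of 48 wild-type libraries, at most 18, and in 1 of 48 *Scx*-/- libraries, the library labelled *Scx*-/- cartilage replicate 1, with 9 counts. Which part of *Scx* the allele lacks is not given in the sources used here, so a count does not tell an intact from a shortened transcript. In the brain tissues the 12 neuron markers summed to a mean of 12068 CPM in cortex and 8809 CPM in hippocampus, where CPM is the count of a gene divided by the total of its library and scaled by a fixed factor. The libraries labelled adipose held a mean of 389352 CPM of 8 pancreatic acinar markers, which goes against their label. The libraries labelled vascular held 3767 to 14222 CPM of 6 brown fat markers, chosen after seeing the data, against at most 2861 CPM in any library of another tissue, and the study left vascular tissue out of its later analysis. Counts of calls are therefore also given without both tissues.

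Across the 16 tissues the genes fell into 3 patterns. *Mbp*, *Mobp*, *Mag*, *Cnp* and *Cldn11* were highest in hippocampus and cortex, and on library totals no other tissue's 6 libraries reached the lower of them except for 1 intestine library of *Cnp*. *Mal* was high in stomach, kidney and bladder as well as in brain, with ranges that overlapped between neighbours in the order of its levels. *Pmp22* was low in brain and high in lung, rectum and muscle. *Mog* had 1 count in the whole series. All 8 genes together took a mean of 1.38% of the counts of a hippocampus library (SD 0.515, n = 6) and 0.975% of a cortex library (SD 0.180, n = 6), against 0.00414% in liver to 0.112% in lung.

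**Figure D1:**
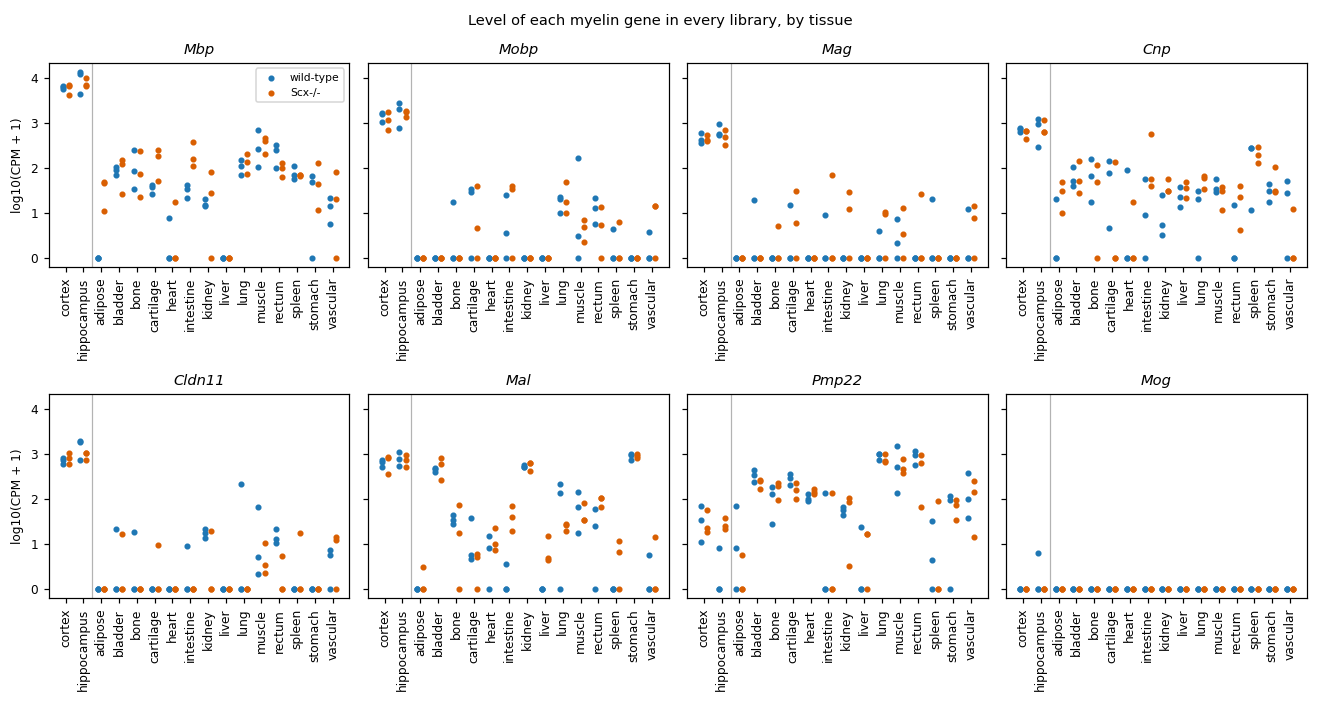
Each panel plots 1 gene, with log10(CPM + 1) on the y axis and the 16 tissues on the x axis (a grey line divides the brain tissues from the others). Each point is 1 library, 3 wild-type (blue) and 3 *Scx*-/- (orange) per tissue. *Mbp*, *Mobp*, *Mag*, *Cnp* and *Cldn11* stand highest left of the line, *Mal* is also high in bladder, kidney and stomach, *Pmp22* is lowest in brain, adipose, spleen and liver, and *Mog* has 1 library above 0.

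Among the genes of compact myelin, *Mbp* took the most counts of the 8 genes in brain, a share that is not corrected for transcript length. In the 6 hippocampus libraries it lay between 4344 and 13070 CPM (median 8160), and in the 6 cortex libraries between 4071 and 6820 CPM (median 6338). The brain ranges overlapped each other and stood apart from muscle, the next tissue, where *Mbp* lay between 104 and 691 CPM (median 323). The mean over the 12 brain libraries was 7320 CPM ± 2791 (SD), which was 21.0 times the muscle mean of 349 CPM ± 209 (SD, n = 6). The highest muscle library was wild-type replicate 1, with 21 of 30409 counts (691 CPM, exact 95% binomial interval 428 to 1055 CPM, which covers counting error only). After muscle came rectum (mean 156 CPM), lung (120 CPM), intestine (120 CPM), bone (117 CPM), cartilage (97.0 CPM), bladder (92.2 CPM) and spleen (70.9 CPM), and every neighbour in this order overlapped. The intestine mean was 70.4 CPM ± 56.8 (SD, n = 5) without *Scx*-/- replicate 2 (11 of 30014 counts). Spleen was the most even of these, with 55.2 to 105 CPM in its 6 libraries. The *Mbp* locus also encodes the golli proteins, which are made outside the nervous system, and a count per symbol does not separate them from classic myelin basic protein. *Mbp* was under 50 CPM on average in stomach, kidney, vascular tissue, adipose and heart, and no count was found in the 6 liver libraries, which put liver at least 7189 times below brain against a floor of 3 counts over the 6 libraries.

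*Mobp* was between 741 and 2729 CPM in hippocampus (median 1776) and between 702 and 1699 CPM in cortex (median 1362). All 12 brain libraries held it, against 30 of the 84 libraries of other tissues, and 99.4% of its counts came from brain, which supplied 23.9% of all counts. It had no count in adipose, bladder, heart, kidney, liver or stomach. The next tissue was muscle with a mean of 29.6 CPM, which rested on wild-type replicate 1 (5 of 30409 counts, 164 CPM, exact 95% binomial interval 53.4 to 384 CPM). The mean of the other 5 muscle libraries was 2.59 CPM ± 2.27 (SD, n = 5). That library also held 19 counts of the 12 neuron markers (625 CPM), against 82.6 to 134 CPM in the other muscle libraries, and the part of nerve or brain RNA in its *Mobp* level was not tested. In lung *Mobp* was above 0 in 6 of 6 libraries, between 8.77 and 46.6 CPM, where neuron markers summed to 207 to 400 CPM.

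Of the surface genes, only *Mag* could be measured. Its range was 313 to 931 CPM in hippocampus (median 552) and 355 to 576 CPM in cortex (median 409). The brain libraries held 98.1% of its counts. Outside brain it was found in 21 of 84 libraries, and the third tissue, intestine, had a mean of 12.4 CPM that fell to 1.57 CPM ± 3.51 (SD, n = 5) without *Scx*-/- replicate 2, a library of 30014 counts in which 2 were *Mag*. Adipose, heart, liver and stomach had no count of *Mag*.

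*Mog* had a single count, in hippocampus wild-type replicate 2 (5.41 CPM, exact 95% binomial interval 0.137 to 30.2 CPM). Every other library was at 0. On the summed totals of the 12 brain libraries, 3 counts correspond to 0.374 CPM, which covers counting error only. A value at 0 in these counts cannot be read as absent RNA: 3 of the 8 lung markers, *Sftpb*, *Ager* and *Cldn5*, had no count in any of the 96 libraries, lung included. Why these genes and *Mog* had next to no counts was not tested. *Mog* allowed no comparison between tissues or genotypes.

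*Cnp*, the gene of the cytoplasmic channels, was 294 to 1229 CPM in hippocampus (median 769) and 429 to 751 CPM in cortex (median 642). It was less restricted to brain than the genes above, with 82.5% of its counts there. Spleen was the third tissue, with 10.5 to 292 CPM (median 235) and no overlap with cortex or hippocampus. Intestine followed with a mean of 120 CPM, which dropped to 31.0 CPM ± 25.9 (SD, n = 5) without *Scx*-/- replicate 2 (17 of 30014 counts). The other 12 tissues had means of 12.8 to 66.9 CPM.

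Of the 3 genes with 4 membrane passes, *Cldn11* was the one most restricted to brain. It lay between 733 and 1895 CPM in hippocampus (median 1024) and between 599 and 1015 CPM in cortex (median 758), and 98.4% of its counts were from brain. In the other tissues 25 of 84 libraries held it. Lung came next with a mean of 35.7 CPM, all of it from wild-type replicate 2 (10 of 46732 counts), and the other 5 lung libraries were at 0. Muscle held it in 6 of 6 libraries, between 1.15 and 65.8 CPM, and kidney in 4 of 6, at most 20.7 CPM.

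*Mal* was shared between brain and 3 epithelial organs. It was highest in stomach (731 to 1002 CPM, median 910), then hippocampus (505 to 1099 CPM, median 758), cortex (356 to 851 CPM, median 694), kidney (417 to 629 CPM, median 535) and bladder (259 to 819 CPM, median 467). Every neighbour in this order overlapped. After bladder there was a gap without overlap to lung (0 to 214 CPM, median 25.6). Brain held 49.2% of the counts of *Mal*. Stomach markers summed to 195851 CPM in stomach, kidney tubule markers to 27241 CPM in kidney and urothelium markers to 7958 CPM in bladder. These libraries thus held the epithelia of their labels. Neuron markers were at most 153 CPM in any library of the 3 organs. The part of any of these cells in the *Mal* levels was not tested. In bulk samples a larger number of expressing cells and more RNA per cell cannot be told apart.

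*Pmp22* was highest in lung (652 to 1006 CPM, median 850), rectum (63.5 to 1166 CPM, median 783) and muscle (131 to 1480 CPM, median 475), followed by bladder (165 to 427 CPM, median 254) and cartilage (97.8 to 348 CPM, median 208). The first 3 changed places with the processing: muscle was first on TMM-scaled totals (796 CPM, lung 636 CPM) and without replicate 2 of every group, and rectum was first without replicate 1. Cortex was in place 12 with 9.73 to 66.9 CPM (median 27.0), and hippocampus in place 14 with 0 to 37.1 CPM (median 13.8). All neighbours overlapped. Brain held 4.74% of its counts. The highest muscle library was again wild-type replicate 1, with 45 of 30409 counts. Fibroblast markers summed to means of 5414 CPM in lung, 18016 CPM in rectum and 10048 CPM in muscle, and their part in the *Pmp22* levels was not tested.

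To ask in which tissues a gene lay below or above its brain level, each of the 14 other tissues was compared with the mean of the 4 brain groups in 1 edgeR quasi-likelihood fit over all 32 groups, with adjustment over all genes in each comparison. *Mbp*, *Mobp*, *Mag*, *Cnp* and *Cldn11* were each lower than in brain in 14 of 14 tissues (highest adjusted p of any of them 0.000425, for *Cnp*). *Mal* was lower in 11 of 14 tissues and did not pass in bladder (adjusted p = 0.426), kidney (adjusted p = 0.991) or stomach (adjusted p = 0.278). *Pmp22* was higher than in brain in 10 of 14 tissues and did not pass in adipose, intestine, liver or spleen. In total 81 of 112 pairs of gene and tissue were called lower and 10 higher, while over all genes 9.85% of the 314902 tests were called lower and 8.06% higher. *Mog* was called in none of the 14. Without adipose and vascular tissue, 69 of 96 pairs were called lower and 9 higher. Of all 56413 calls 45.0% were higher than brain, and 31.7% were with RLE scaling.

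The size of these differences is given from mean CPM for *Mbp*, *Mobp*, *Mag*, *Cnp* and *Cldn11*. For *Mal* and *Pmp22* it is given from the fit. Brain over tissue was smallest in spleen for *Cnp* (3.65-fold) and in muscle for *Mbp* (21.0-fold). For *Mag* it was smallest in intestine (41.3-fold), for *Mobp* in muscle (50.9-fold) and for *Cldn11* in lung (27.5-fold), and each of these 3 rested mostly on 1 library, as given above. For *Mal*, the fitted log2 difference to brain was 0.60 (SE 0.35) in stomach, -0.25 (SE 0.36) in kidney and -0.54 (SE 0.37) in bladder. With RLE scaling *Mal* was also called lower in kidney and bladder (-1.26 in bladder), and its sign in stomach turned to -0.23. The fitted log2 of *Pmp22* over brain was 5.54 (SE 0.46) in muscle, 5.30 (SE 0.46) in lung and 4.97 (SE 0.46) in rectum. The adjusted p in edgeR was 3.12e-31, 7.69e-28 and 1.93e-24. On mean CPM the order differed, and *Pmp22* over brain was 34.3-fold in lung, 29.5-fold in rectum and 25.1-fold in muscle. Its smallest called differences in the fit were in kidney (log2 1.84, SE 0.56, adjusted p = 0.00579) and stomach (log2 2.24, SE 0.54, adjusted p = 0.000338). The number of tissues in which *Pmp22* was called ranged from 7, with the *Scx*-/- groups alone, to 10.

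**Figure D2:**
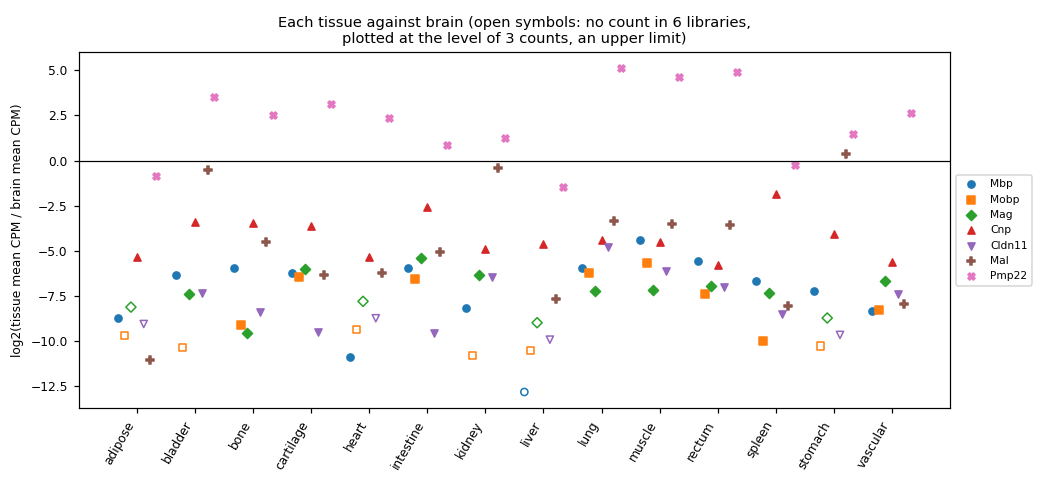
The y axis gives log2 of the mean CPM of a tissue (6 libraries) over the mean of the 12 brain libraries, and the x axis the 14 other tissues. Symbols are the genes, and open symbols are tissues without a count, drawn at the level of 3 counts over the tissue, which is an upper limit. *Pmp22* lies above the line at 0 in 11 tissues, *Mal* near it in bladder, kidney and stomach, and the other 5 genes below it in all 14.

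Within brain, the levels were compared between cortex and hippocampus over both genotypes. Mean levels on library totals were higher in hippocampus for *Mbp* (8697 against 5943 CPM), *Mobp* (1715 against 1297), *Cldn11* (1207 against 756), *Mal* (768 against 648), *Mag* (582 against 444) and *Cnp* (800 against 630), and lower for *Pmp22* (14.7 against 34.0 CPM). On TMM-scaled totals the order of *Mag*, *Cnp* and *Mal* turned, and that of *Cnp* also without replicate 2 of every group. The ranges of cortex and hippocampus overlapped for all genes. In the edgeR fit with genotype as a term, 0 of the 8 genes were called, by edgeR and by DESeq2, against 0.936% of 17514 genes (164), of which 124 (75.6%) were higher in cortex and 40 higher in hippocampus. With RLE scaling 52.7% of the calls were higher in cortex, and with library totals 56.6%. At an unadjusted p under 0.05 there was 1 of the 8, *Cldn11*, against 10.4% of all genes (1813).

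The log2 difference of cortex from hippocampus was -0.49 (SE 0.17, adjusted p = 0.184) for *Cldn11*, -0.40 (SE 0.28, adjusted p = 0.634) for *Mbp* and -0.27 (SE 0.23, adjusted p = 0.686) for *Mobp*. It was -0.23 for *Mag*, -0.22 for *Cnp* and -0.10 for *Mal*, and 1.62 (SE 1.03) for *Pmp22*, while the median of all genes was 0.46. When 1 library was left out, it ranged from -0.45 to -0.07 for *Mobp*, -0.37 to -0.05 for *Mag* and -0.42 to -0.02 for *Cnp*. With RLE factors the median of all genes was 0.28 and with library totals 0.32, and under each of them *Cldn11* was called lower in cortex (-0.68, adjusted p = 0.0105, and -0.63, adjusted p = 0.0257). Without hippocampus wild-type replicate 3, *Cldn11* (-0.61, adjusted p = 0.0253) and *Mbp* (-0.55, adjusted p = 1.52e-06) were called. Over the other alternatives the adjusted p of *Cldn11* reached 0.849.

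The hippocampus libraries spread more widely than the cortex libraries for *Mbp* and *Cnp*. *Mbp* was 11884, 13070 and 4344 CPM in the 3 wild-type hippocampus libraries and 6567, 9625 and 6695 CPM in the 3 *Scx*-/- ones. In cortex it was 6624, 6247 and 5466 CPM in wild-type and 4071, 6429 and 6820 CPM in *Scx*-/- libraries. Hippocampus wild-type replicate 2 was the highest of its 6 libraries for *Mbp*, *Mobp*, *Mag*, *Cnp*, *Cldn11* and *Mal*, and wild-type replicate 3 was the lowest for *Mbp*, *Mobp* and *Cnp*. The highest library exceeded the lowest by 3.01-fold for *Mbp* and 4.18-fold for *Cnp* in hippocampus, and by 1.68-fold and 1.75-fold in cortex. Relative to *Mbp* in the same library, *Mobp* was 0.214 of *Mbp* in cortex (SD 0.0389, n = 6) and 0.200 in hippocampus (SD 0.0435, n = 6), and *Cldn11* was 0.128 (SD 0.0174) and 0.140 (SD 0.0256). Astrocyte markers summed to 3677, 3216 and 2588 CPM in the 3 wild-type hippocampus libraries, in replicate order. In the 3 *Scx*-/- ones they summed to 4632, 4490 and 4141 CPM, all above wild-type. Neuron markers summed to 8869 CPM in hippocampus wild-type replicate 3 and 8078 to 9554 CPM in the other 5 hippocampus libraries. The part of both marker lists in the spread was not tested.

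**Figure D3:**
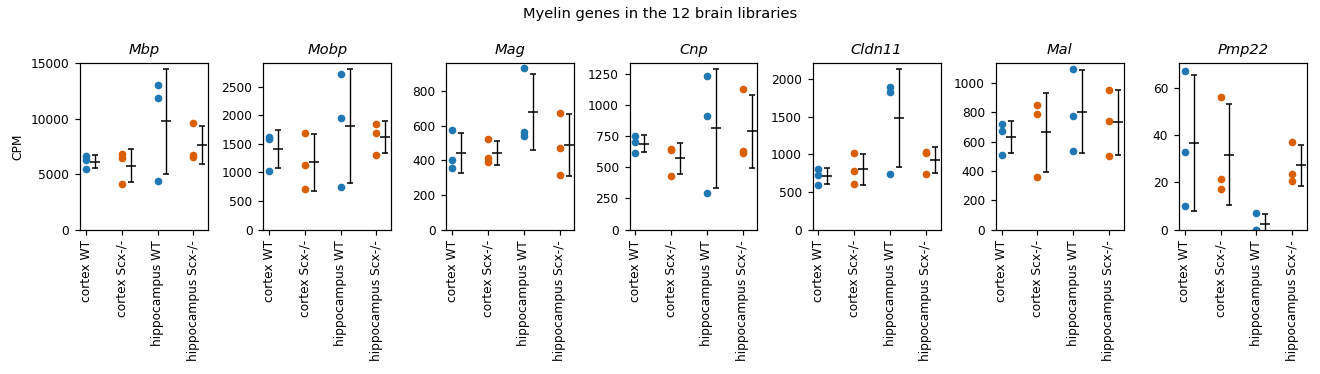
Each panel shows the CPM of 1 gene (y axis from 0) in the 12 brain libraries, as points for cortex and hippocampus by genotype (wild-type blue, *Scx*-/- orange), with the mean and SD of 3 libraries in black. Wild-type hippocampus has the widest spread for *Mbp* (4344 to 13070 CPM), and within a tissue the genotypes overlap for every gene but *Pmp22* in hippocampus.

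Whether the loss of *Scx* changed a myelin gene was tested in each tissue with 3 against 3 libraries. Of the 128 pairs of gene and tissue, 30 had no count in any of the 6 libraries, and 98 were tested. None was called: 0 of 98 passed an adjusted p under 0.05 in edgeR, and 0 in DESeq2, against 0.0914% of all 219996 tests (201, of which 64.7% were higher in *Scx*-/- libraries, and 48.8% of the calls with library totals). At an unadjusted p under 0.05 edgeR gave 5 of 98, against 4.01% of all tests, and at the thresholds of the study, which add a fold change above 2, it gave 4 of 98, against 3.71% of all tests. In 9 pairs all *Scx*-/- libraries were above all wild-type libraries and in 1 pair all were below (4.11% and 3.86% of all tests). Without adipose and vascular tissue, 0 of 87 tested pairs were called, 4 had an unadjusted p under 0.05 and 3 met the thresholds of the study. The fitted direction was up in 56 pairs and down in 42, and the median log2 difference was 0.10, against 0.03 over all tests.

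In the brain tissues, where most of these genes had the highest counts, no difference between genotypes passed. In cortex the log2 difference of *Scx*-/- from wild-type was -0.05 (SE 0.11) for *Mbp*, -0.23 (SE 0.16) for *Mobp*, 0.02 (SE 0.21) for *Mag*, -0.24 (SE 0.19) for *Cnp*, 0.20 (SE 0.18) for *Cldn11* and 0.10 (SE 0.19) for *Mal*, with adjusted p of at least 0.830. In hippocampus the log2 difference was -0.21 (SE 0.55, adjusted p = 0.956) for *Mbp*, -0.02 (SE 0.23) for *Mobp*, -0.32 (SE 0.35) for *Mag*, 0.10 (SE 0.31) for *Cnp* and 0.00478 (SE 0.31) for *Mal*. Without wild-type replicate 3, *Mbp* was at -0.58 (SE 0.14, adjusted p = 0.0753), which did not pass either. In the same tissue *Cldn11* was 1830, 1895 and 734 CPM in wild-type and 1014, 1034 and 733 CPM in *Scx*-/- libraries. These ranges overlapped, and the log2 difference in edgeR was -0.53 (SE 0.27, unadjusted p = 0.0481, adjusted p = 0.762). It was -0.87 to -0.24 when 1 library was left out. *Pmp22* in hippocampus had 0, 0 and 1 counts in wild-type libraries of 118567 to 184695 counts and 10, 19 and 6 counts in *Scx*-/- libraries of 255264 to 511781 counts, which did not overlap on CPM and did not pass (log2 3.50, SE 2.50, adjusted p = 0.762). The median log2 difference of all genes in hippocampus was 0.42. A test of the interaction between genotype and region called 0 of the 8 genes in edgeR, with 1 at an unadjusted p under 0.05 (*Cldn11*, 0.73, SE 0.33, adjusted p = 0.760), against 6.33% of all genes. DESeq2 called 0 of the 8, and over all 17514 genes edgeR called 0.00571% (1 gene).

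Outside brain, the pairs at an unadjusted p under 0.05 rested on few counts. *Mbp* in cartilage had 8, 10 and 7 counts in wild-type libraries (36.7, 40.3 and 25.4 CPM) and 59, 38 and 14 counts in *Scx*-/- libraries (244, 185 and 50.7 CPM). The groups did not overlap, and the log2 difference was 2.27 (SE 0.93, adjusted p = 0.769). The highest of them was the library labelled *Scx*-/- replicate 1, the one with counts of *Scx*, and without it the log2 difference was 1.82. Pancreatic acinar markers summed to 377 to 886 CPM in the wild-type and 1992 to 2536 CPM in the *Scx*-/- cartilage libraries, and their part in the *Mbp* difference was not tested. *Mbp* in adipose had 0 counts in the 3 wild-type libraries and 20, 16 and 5 counts in the *Scx*-/- libraries, at least 3.72-fold higher against a floor of 3 counts over the wild-type group (adjusted p = 0.614). These are the libraries with acinar markers, and the median log2 difference of all genes there was 1.47, with 100469 to 140132 counts in wild-type and 333668 to 498158 counts in *Scx*-/- libraries. *Mag* in kidney had 0 counts in wild-type and 5, 9 and 0 counts in *Scx*-/- libraries, at least 11.8-fold higher by the same floor (adjusted p = 0.791). *Cldn11* in lung had its 10 counts in 1 wild-type library (adjusted p = 0.741). In muscle, the tissue with the highest *Mbp* outside brain, *Mbp* was 691, 104 and 259 CPM in wild-type and 386, 199 and 452 CPM in *Scx*-/- libraries, and *Pmp22* was 1480, 131 and 504 CPM against 365, 447 and 745 CPM, so that both genes overlapped between genotypes.

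**Figure D4:**
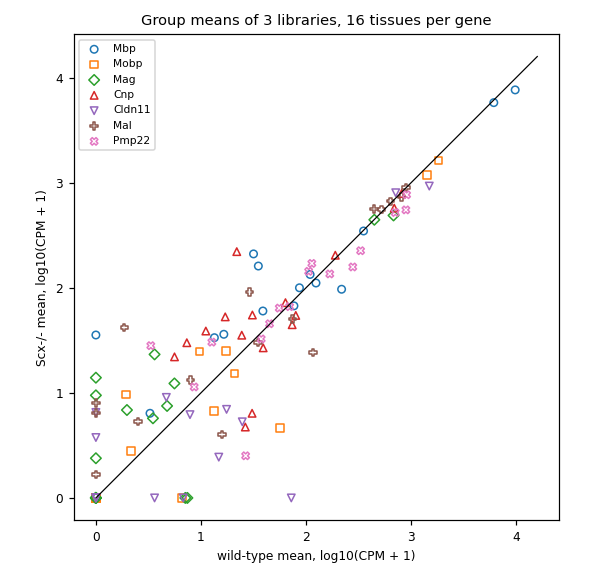
Each symbol is 1 gene in 1 tissue, with log10(CPM + 1) of the wild-type mean (3 libraries) on the x axis and of the *Scx*-/- mean (3 libraries) on the y axis, and the line marks equal means. The brain levels of *Mbp*, *Mobp*, *Mag*, *Cnp*, *Cldn11* and *Mal* lie at the upper right. Beside them are *Mal* in stomach, kidney and bladder, and *Pmp22* in lung, in muscle and in rectum (890 CPM in wild-type and 549 CPM in *Scx*-/- libraries). Symbols under a log10 value of 2 scatter around the line.

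The other genes of the pathway were followed in 4 lists. Of 20 other structural myelin genes, *Cd81* (609 CPM) and *Sirt2* (517 CPM) were among the 3 with the most counts in brain, and *Gsn*, *Cd81* and *Cd9* took the most elsewhere. *Gsn*, which encodes an actin-severing protein, was higher than in brain in 9 of 14 tissues, with a mean of 4182 CPM in bladder. Pooled over the 14 tissues, 150 of 280 tests of this list were called lower than brain and 29 higher, beside 9.85% and 8.06% of all tests.

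Of 20 oligodendrocyte lineage genes, *Olig1*, a transcription factor of the lineage, took the most counts in brain (272 CPM ± 82.1, SD, n = 12), before *Qdpr* (178 CPM) and *Bcas1* (175 CPM). *Olig1* was below brain in 14 of 14 tissues. *Trf*, which encodes the iron carrier transferrin and is made in large amounts by liver, was 14852 CPM in liver, and *Car2* was 2643 CPM in spleen, so that the sum of the list was higher in liver (15421 CPM) than in hippocampus (1661 CPM). The pooled count was 145 of 280 tests lower than brain and 28 higher, beside the same 9.85% and 8.06%, which also stand beside the counts of the lists that follow. Of 14 genes of myelin lipid synthesis, 77 of 182 tests were lower and 17 higher. *Ugt8a*, which makes galactosylceramide, was lower than brain in 14 of 14 tissues, and *Hmgcs1* of cholesterol synthesis, with 289 CPM in brain, was lower in 9 and higher in 0 of 14. *Cers2* and *Elovl1*, which act in many tissues, were highest in lung (325 and 274 CPM). Of 14 Schwann cell lineage genes, *Ncam1* (481 CPM), *S100b* (234 CPM) and *Pou3f1* (141 CPM) took the most counts in brain, where other cells also make them, and 73 of 196 tests were lower than brain and 9 higher. *Scn7a*, a sodium channel gene, was 429 CPM in lung.

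**Figure D5:**
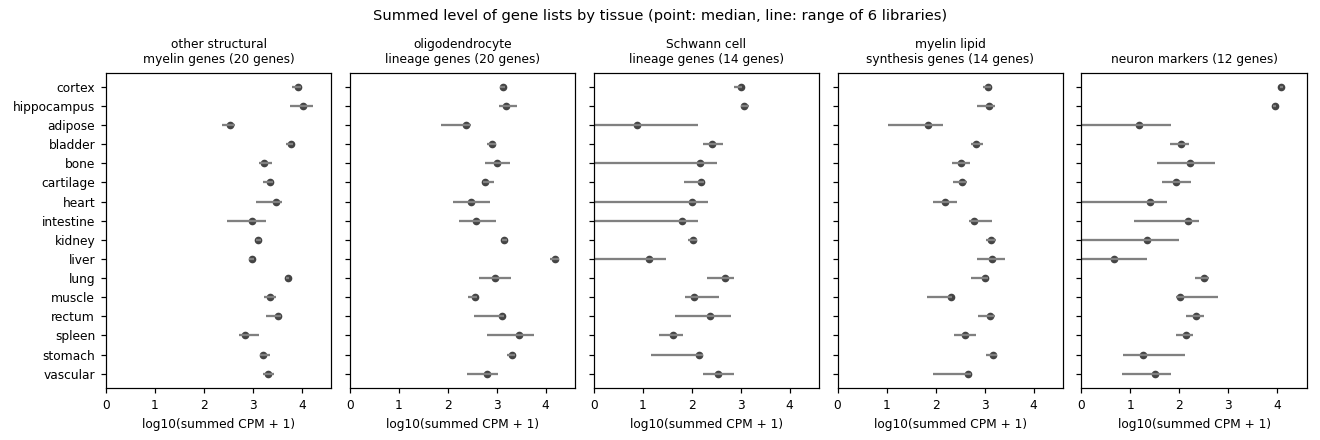
The x axis of each panel gives log10 of the summed CPM + 1 of a gene list and the y axis the 16 tissues, with the median (point) and the range (line) of 6 libraries. The sums of neuron markers and of other structural myelin genes are highest in cortex and hippocampus. Single genes of the structural list differ from its sum, such as *Gsn* with 4182 CPM in bladder. The sum of the oligodendrocyte lineage genes is highest in liver, where *Trf* is 14852 CPM. Lipid synthesis genes have mean sums of 1184 CPM in cortex and 1480 CPM in liver.

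Between cortex and hippocampus, 0 genes of these 4 lists were called in edgeR. At an unadjusted p under 0.05 there were 2 of 18 tested structural genes, 2 of 13 lipid genes, 1 of 20 oligodendrocyte lineage genes and 1 of 11 Schwann cell lineage genes, against 10.4% of all genes. The median log2 difference of cortex from hippocampus was -0.21 for the structural and -0.30 for the oligodendrocyte lineage genes, and 0.32 for the lipid and 0.43 for the Schwann cell lineage genes, beside 0.46 over all genes. *Ugt8a* was 133 CPM in cortex and 259 CPM in hippocampus (log2 -0.86, adjusted p = 0.257). Of the 12 neuron markers 2 were called, *Nrgn* (log2 1.12, SE 0.11, adjusted p = 3.34e-20) and *Snap25* (0.58, SE 0.13, adjusted p = 0.00121), both higher in cortex, and the median of the 12 was 0.15. Between genotypes, 0 genes of the 4 lists were called in edgeR in any tissue, with 13 of 223, 9 of 187, 11 of 203 and 6 of 133 tests at an unadjusted p under 0.05 for structural, lipid, oligodendrocyte and Schwann cell genes, near the 4.01% of all tests.

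The genes with the most similar pattern over the 32 group means were found by Pearson's r of log2(CPM + 1), as a description, since tissues share their depth and composition. The 3 genes nearest to *Mbp* included *Ppp3ca* (r = 0.915) and *Eno2*, and *Mobp* was most like *Cdk5r2* (r = 0.949), *Camkv* and *Sncb*. *Mag* was nearest to *Ncan* (r = 0.912), *Cdk5r1* and *Ddn*, and *Cnp* to *Tcerg1l* (r = 0.842), *Add2* and *Nwd2*. The 3 genes nearest to *Cldn11* included *Lmtk3* (r = 0.904) and *Rph3a*. None of the 3 nearest genes of *Mobp*, *Mag*, *Cnp* or *Cldn11* was in the myelin lists. *Mal* was nearest to *Sytl2* (r = 0.875), *Syt3* and *Ssbp4*, and *Pmp22* to *Ahnak* (r = 0.872), *Cav1* and *Zak*. Among the 8 genes, *Mobp* and *Mag* were the most alike (r = 0.871). The pairs of *Pmp22* ran from r = -0.386 with *Cnp* to 0.177 with *Mal*, and *Pmp22* with *Mbp* gave r = 0.0586.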

How the data were processed

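RNA was extracted with Trizol from whole organs frozen at necropsy and sequenced on an Illumina X-Ten. Per the labels and the study's methods, the authors aligned reads to mm10 with Bowtie2 and counted them per gene symbol with HTSeq. For versions, annotation and strand the setting is not given in the sources used here. The deposited values are raw read counts without normalisation in 96 libraries. The sources differ on whether libraries were 3′-enriched or full-length, so CPM is not divided by length and levels are compared within a gene. Whether reads from the same molecule were merged is not given.

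The members and lists were chosen with earlier results of these data known. CPM was computed on library totals. Tests used edgeR 4.0.16 (quasi-likelihood, TMM scaling, genes at 0 in all libraries of a fit removed) with Benjamini-Hochberg adjustment and a threshold of 0.05, checked on simulated data, and DESeq2 1.42.0 as an alternative, in R 4.3.3. The thresholds of the study were a fold change above 2 and an unadjusted p under 0.05. An exact permutation test of 3 against 3 libraries cannot go below 0.1, so none was used. Named genes were the 8 members, the 3 genes of each myelin list with the highest mean CPM in brain or elsewhere, and the 3 genes most similar to each member, and some genes that this rule takes are not reported here. *Ugt8a*, *Nrgn* and *Snap25* were named between brain tissues, the last pair because they were called. Other alternatives were RLE factors, library totals, filterByExpr, thinned counts, other references, single genotypes, leaving out libraries, a replicate block, leaving out the 8 libraries under 50000 counts, and not counting adipose and vascular tissue, the last pair chosen after seeing the data. Intervals are exact binomial at 95% and, like the floor of 3 counts, cover counting error only. Replicate numbers were not taken to pair libraries.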

Additional observations from a re-analysis of the deposited data

How the results depend on the processing

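Of the values that answer a comparison, 312 kept their call or count under an alternative and 9 moved, and of those of single genes 219 kept, 6 gained a call and 4 changed sign. No *Scx*-/- difference of a member passed the adjusted threshold under any alternative run. At the thresholds of the study the count of 4 (8151 of 219996 tests over all genes) was 1 with filterByExpr (2301 of 68597), 1 with the replicate block (3049 of 219996) and 10 in a joint fit over 32 groups, which tests more pairs (13788 of 359888), and 3 to 5 when 1 library was left out. The calls between cortex and hippocampus went from 0 to 1 with RLE factors and to 1 with library totals (*Cldn11*), and were 0 to 2 when 1 library was left out, with 2 without hippocampus wild-type replicate 3. The log2 difference of *Mal* between cortex and hippocampus (-0.10) was -0.21 to 0.0656 when 1 library was left out, and turned to 0.0447 without cortex *Scx*-/- replicate 1, 0.0656 without hippocampus wild-type replicate 2 and 0.022 without hippocampus *Scx*-/- replicate 2, and that between stomach and brain (0.60) became -0.23 with RLE factors. Of the 21 genes with the most similar patterns, 11 were shared with Spearman's rho, 12 with a pseudocount of 10 and 8 with the 16 wild-type groups alone. The cause of these changes was not tested. Members below brain were 81 under the alternatives run except RLE factors (83) and with adipose and vascular tissue not counted (69 of 96 pairs), and members above brain were 7 to 10. Without the 8 libraries under 50000 counts, chosen after seeing the data, they were 81 and 10.

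Deviations of same-numbered cortex and hippocampus libraries correlated at 0.004 to 0.036 in 6 pairs, none over 0.1. Those of libraries with other numbers correlated at -0.036 to 0.011 in 12 pairs. Values this low cannot show whether same-numbered libraries share an animal. With the replicate block, 0 members were called for genotype, 0 between brain tissues, 0 for the interaction, and 81 lower and 10 higher than brain. Over all genes, the genotype calls (201 of 219996 tests) were 84 of 359888 in the joint fit and 58 of 68597 with filterByExpr. Those between brain tissues (164 of 17514) were 259 of 17514 with DESeq2 and 92 of 15583 with thinned counts. They were 92 of 16248 with *Scx*-/- libraries alone and 32 of 15594 with wild-type libraries alone. With the cortex as the only reference 35.3% of calls were above brain. Depth limits the members with few counts outside brain, and the cause of the near-empty *Mog* counts was not tested.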
